A study of Mus musculus with 8 samples.

Results

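Regulatory T cells (Tregs) carry surface receptors that restrain or costimulate activation, and 9 of their genes were examined, namely Ctla4, Icos, Tigit, Pdcd1 (PD-1), Lag3, Havcr2 (TIM-3), Cd5, Cd6 and Btla. They were chosen by name for what they do, and are 9 of the 56980 genes in the count table. RNA-seq was run on Tregs sorted from the peripheral blood of mice after high altitude de-acclimatization (HADA) and of control mice, with 4 libraries in each group. The study's methods describe male C57BL/6j mice bought at 8 weeks of age. Mice of the HADA group lived at a simulated 6000 m in a hypobaric chamber for 28 days and then went back to normoxia, and control mice stayed in normoxia throughout. The day of the sort for sequencing, and whether the libraries of a group came from separate mice, are not given in the sources used here, so p-values measure the spread between libraries, which may be partly technical. The labels say that Tregs were sorted from blood and give no gate. The study's methods define Tregs as CD4+CD25+ for a co-culture assay, and activated conventional CD4+ T cells can also enter such a gate.

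Tregs hold back other lymphocytes in part through these receptors. CTLA-4, which Tregs keep largely in vesicles and cycle to the surface, takes CD80 and CD86 away from the costimulator CD28. ICOS delivers a costimulatory signal from its ligand on antigen-presenting cells. TIGIT, PD-1, LAG-3, TIM-3 and BTLA carry inhibitory signals from ligands on other cells, and CD5 and CD6 are scavenger-receptor family members that tune signalling of the T cell receptor.

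Of the 9 receptors, 8 passed the filter on low counts, Lag3 being the exception. None of the 8 was called in HADA against control by edgeR's quasi-likelihood test. A call needed a log2 fold change beyond 1, and an adjusted p (Benjamini-Hochberg) under 0.05. Over the 21991 genes tested, 1.65% were called higher and 0.477% lower in HADA. Before adjustment 2 receptors, Ctla4 and Icos, had p below 0.05, against 26.7% of the genes tested. The log2 fold change (HADA over control) was positive for 7 of the 8, against 50.2% of the genes tested, with Tigit the exception. Its median over the 8 receptors was 2.05, against 0.01 over the genes tested. General T cell genes were shifted in the same way. The median was 1.88 over 10 of them (Cd3e, Cd4, Lck and others), 9 of the 10 being positive. It was 1.69 over 4 tested Treg markers, all 4 positive. With background reads subtracted (below), the median was 1.54 over 6 tested receptors and 1.49 over the T cell genes. Over all genes tested in that fit it was 1.01.

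Promoters were read from RefSeq (GRCm38.p6), which held an entry for 6 of the 9 receptors, without Icos, Lag3 and Cd6. The 250 bases before the start site are shown for Ctla4, Cd5 and Btla, whose groups did not overlap once the shallowest control library was left out, and for Tigit, the receptor with a negative log2 fold change. Capitals mark matches, on either strand, to TGACNNNGC (core of the antioxidant response element) and GGAAA (core of NFAT sites, TTTCC on the other strand). The stretches are chr1:60908775-60909024 on the plus strand, chr19:10738975-10739224 on the minus strand, chr16:45224087-45224336 on the plus strand and chr16:43664185-43664434 on the minus strand, each written 5′ to 3′ along its gene.
Ctla4: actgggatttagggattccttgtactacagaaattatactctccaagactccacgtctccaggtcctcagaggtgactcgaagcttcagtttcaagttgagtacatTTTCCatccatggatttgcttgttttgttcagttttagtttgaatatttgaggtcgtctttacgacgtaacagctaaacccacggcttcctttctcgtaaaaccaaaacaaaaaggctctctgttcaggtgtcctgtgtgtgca
Cd5: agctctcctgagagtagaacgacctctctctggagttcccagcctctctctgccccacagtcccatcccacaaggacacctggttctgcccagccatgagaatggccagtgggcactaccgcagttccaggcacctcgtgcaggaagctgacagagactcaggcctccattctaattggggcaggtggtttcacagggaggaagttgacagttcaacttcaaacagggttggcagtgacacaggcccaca
Btla: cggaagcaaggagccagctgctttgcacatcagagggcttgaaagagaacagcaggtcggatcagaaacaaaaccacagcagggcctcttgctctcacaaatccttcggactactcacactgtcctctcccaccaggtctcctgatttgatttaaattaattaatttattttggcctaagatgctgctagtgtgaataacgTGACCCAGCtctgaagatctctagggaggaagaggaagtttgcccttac
Tigit: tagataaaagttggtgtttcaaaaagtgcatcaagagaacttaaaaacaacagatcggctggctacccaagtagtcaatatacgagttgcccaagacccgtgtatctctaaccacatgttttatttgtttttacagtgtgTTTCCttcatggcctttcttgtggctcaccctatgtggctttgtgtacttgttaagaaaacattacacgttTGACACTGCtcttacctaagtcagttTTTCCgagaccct

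In the window from 250 bases before to 50 after the start, TGACNNNGC was present in 2 of the 6 receptor promoters, Btla and Tigit, and in 12.4% of the 32851 promoters in the table. GGAAA was present in 4 of 6 (Ctla4, Cd5, Pdcd1 and Tigit) and in 61.3% of the table. The Cd5 match lies after the start site and outside the printed stretch. TGTTTAC, the core of forkhead sites, was present in 0 of 6 and in 3.65% of the table. No printed match overlapped a match to another motif, and a match describes letters only. Btla and Tigit, which share TGACNNNGC, had log2 fold changes of 1.63 and -0.32.

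The libraries differed in ways that touch these values. HADA libraries held between 22929193 and 28240337 counts, while control replicate 1 held 1477431 and the other control libraries between 14452433 and 22584062, so that all HADA totals were above all control totals (p = 0.029 by exact permutation, two-sided, which is the smallest that 4 against 4 can give). The deposited counts cover whole gene spans, introns included, so background was read from 1776 olfactory and vomeronasal receptor genes, which T cells do not use. It was between 0.0719 and 0.182 CPM (counts per 1000000 counts of the library) per kilobase in HADA and between 0.0541 and 0.734 in control, highest in control replicate 2. A group of 10 T cell genes (Cd3e, Cd4, Lck and others) summed to between 2825 and 9357 CPM in HADA after TMM scaling, which all CPM values below carry, to 2960 in control replicate 1 and to between 115 and 2646 in the other control libraries. Of 6 Treg markers, Foxp3 and Tnfrsf18 were at 0 in every library. Other genes' spans cover 100% of each, and the 1077 protein-coding genes so covered were all at 0, so neither gene says anything about the sort. The remaining 4, Il2ra, Ikzf2, Ikzf4 and Il2rb, summed to between 511 and 2114 CPM in HADA and between 227 and 585 in control. Fewer cells of a type and less RNA per cell cannot be told apart in these bulk samples. Because control replicate 1 stood apart in depth, results are also given without it. It was also the single control library whose T cell gene sum lay in the HADA range, and had the lowest background. Leaving it out thus kept the control libraries poorer in T cell genes. With all 8 libraries drawn down to its depth, Ctla4 had a log2 fold change of 2.25 (adjusted p = 0.165 in edgeR).

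Ctla4 was the single receptor whose 8 libraries separated by group. It lies on chromosome 1 from 60926159 to 60954991 on the plus strand (GRCm39, ENSMUSG00000026011). HADA replicates 1 to 4 held 264, 254, 784 and 763 CPM, and control replicates 1 to 4 held 224, 5.07, 24.5 and 41.3 CPM. All 4 HADA libraries were above all 4 control libraries, though control replicate 1 came close to the lowest HADA library. Groups that do not overlap in this direction were found for 9.13% of the genes tested, and for 5.7% in the other. The means were 516 ± 297 CPM in HADA and 73.8 ± 101 CPM in control (SD, n = 4 each). The log2 fold change was 2.81 (SE 1.07), with an adjusted p of 0.138 in edgeR. By DESeq2, the tool named in the study's methods, it was 2.76 with an adjusted p of 0.0109. A pseudogene, Rpl18-ps1, covers 1.82% of the Ctla4 span.

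Icos, the costimulatory receptor beside Ctla4 on chromosome 1 (61017086 to 61039479, plus strand), had the second-smallest p. HADA replicates held 94.0, 69.5, 449.6 and 674 CPM, and control replicates 94.5, 6.54, 50.1 and 96.3 CPM. HADA replicates 3 and 4 were above every control library, whereas HADA replicates 1 and 2 lay within the control range. The edgeR log2 fold change was 2.38 (SE 1.01, adjusted p = 0.166), and the DESeq2 value was 2.19 with an adjusted p of 0.0394. Ctla4 and Icos were thus the 2 receptors called by DESeq2, which called 11.2% of the genes tested higher and 19.3% lower. The span of Gm37039 covers 11.1% of Icos, and reads there may be missing from its count.

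Btla, the inhibitory receptor for HVEM, lies on chromosome 16 (45044678 to 45078033, plus strand). It was present at 499, 284, 554 and 662 CPM in the HADA libraries and at 328, 9.89, 73.8 and 234 CPM in the control libraries. Control replicate 1 lay inside the HADA range and the other control libraries lay below it. Btla's log2 fold change was 1.63 (SE 0.92), with an adjusted p of 0.251 in edgeR.

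Cd5 and Cd6 are neighbours on the minus strand of chromosome 19 (10694480 to 10716366 and 10766705 to 10807422), and they did not share a pattern over the libraries. Cd5 was at 159, 102, 258 and 320.0 CPM in HADA and at 165, 2.41, 17.5 and 16.4 CPM in control. As with Btla, control replicate 1 reached the HADA range and the other 3 control libraries did not. Cd6 was at 9.23, 84.3, 97.8 and 109 CPM in HADA and at 89.5, 49.7, 4.93 and 3.48 CPM in control. HADA replicate 1 was thus below control replicates 1 and 2. The log2 fold change was 2.07 (SE 1.11) for Cd5, with an adjusted p of 0.234 in edgeR. For Cd6 it was 1.03 (SE 1.11), with an adjusted p of 0.537 in edgeR.

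Tigit, an inhibitory receptor that competes with CD226 for PVR, was the one tested receptor with a negative log2 fold change. It lies on chromosome 16 (43469230 to 43484509, minus strand). HADA libraries held 1.03, 12.4, 46.7 and 76.8 CPM and control libraries 27.3, 2.72, 29.1 and 112 CPM, so the groups overlapped almost entirely. In edgeR the log2 fold change was -0.32 (SE 1.22), with an adjusted p of 0.869. Leaving out control replicate 4 turned it to 0.85, and leaving out HADA replicate 1 or 2 to 0.01 or 0.05.

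The 3 receptors best known from exhausted T cells were at the bottom of the range. Pdcd1 (chromosome 1, 93966027 to 93980278, minus strand) was at 0.986, 1.34, 1.54 and 42.7 CPM in HADA and at 5.59, 1.38, 1.26 and 0.174 CPM in control. HADA replicate 4, with 710 counts, held nearly all of the HADA signal. Its log2 fold change of 2.64 (SE 1.41, adjusted p = 0.233 in edgeR) became -0.28 without HADA replicate 4.

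Havcr2 (chromosome 11, 46345762 to 46372082, plus strand) was at 3.71, 14.7, 78.3 and 2.22 CPM in HADA and at 9.32, 5.98, 5.34 and 3.71 CPM in control. HADA replicate 3 stood above the rest, and HADA replicates 1 and 4 were at or below the lowest control library. The log2 fold change was 2.04 (SE 1.10), with an adjusted p of 0.237 in edgeR, and 0.30 was its lowest value when single libraries were left out. Lag3 (chromosome 6, 124881324 to 124888668, minus strand) had 9, 2, 4 and 0 counts in HADA and 2, 18, 7 and 5 counts in control, and was not tested.

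**Figure D1:**
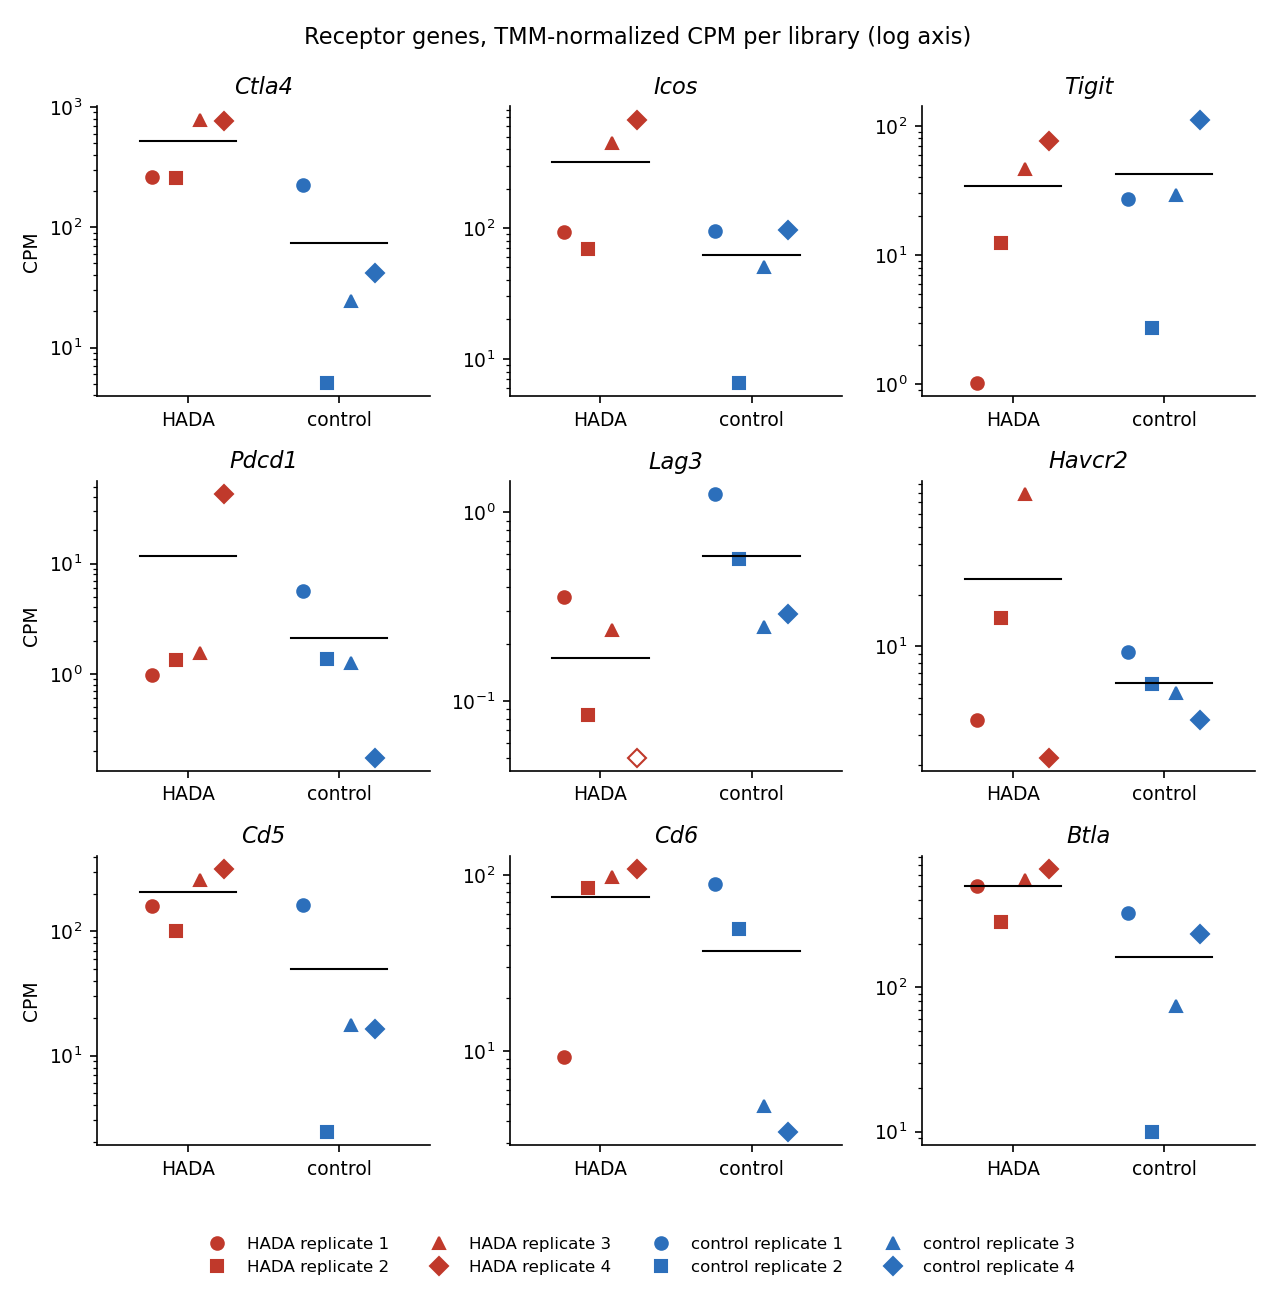
Normalized level (CPM, log axis) of each receptor in each library, HADA in red and control in blue, with black lines at the group means and an open diamond for a library with 0 counts. The lowest HADA value of Ctla4, 254 CPM, sits above the highest control value, 224 CPM, and the other receptors overlap between groups.

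Background set how far the low receptors can be read. For each library the counts expected over a receptor's span were computed from the olfactory and vomeronasal genes, and a receptor was called above background where its counts per kilobase passed the 95th percentile of those genes. Lag3 was above background in 0 of 8 libraries, so its transcript was not detectable at this depth. Pdcd1 was above it in HADA replicate 4, at 26.1 times the expected count, and in control replicate 1, where it had 9 counts. Havcr2 passed in 3 of 8 libraries, at 18.6 times the expected count in HADA replicate 3, at 3.19 times in HADA replicate 2, and with 15 counts in control replicate 1.

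Tigit was above background in 6 of 8 libraries, the exceptions being HADA replicate 1, at 0.339 times the expected count, and control replicate 2. Cd6 was above it in 5 of 8, and Ctla4, Icos, Cd5 and Btla in 7 of 8. Control replicate 2 was the exception for these last 4, and Cd6 was the single receptor above background in that library. The low control values of replicate 2 are therefore at the level of background reads. With the background subtracted in each library 6 receptors could be tested, none of them called in edgeR and 0 at an unadjusted p below 0.05. Of the genes in that fit, 1.15% were called higher and 1.17% lower, and 11.0% had an unadjusted p below 0.05. The median log2 fold change over the 6 receptors was 1.54, with 4 positive, against 1.01 over the genes tested in that fit. Cd6 then had a log2 fold change of -0.28.

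**Figure D2:**
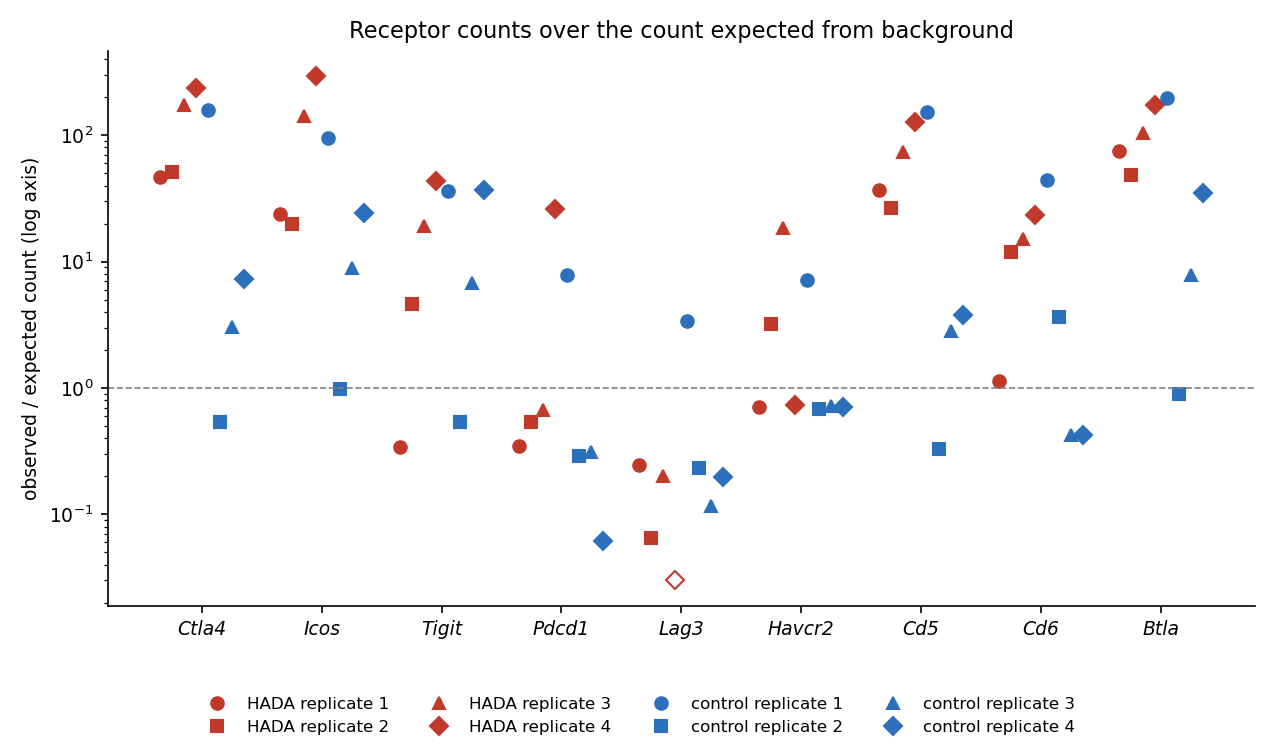
Observed count of each receptor over the count expected from background (log axis), 1 point per library, HADA in red and control in blue, with a dashed line where they are equal and an open diamond for 0 counts. Most Lag3 and Pdcd1 points lie below the line, while Pdcd1 in HADA replicate 4 is at 26.1.

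Without control replicate 1, in a comparison of 4 HADA with 3 control libraries, Ctla4, Cd5 and Btla were higher in every HADA library than in any control library. Of the genes tested, 18.4% were higher and 26.6% lower in this way. The control means were then 23.6 ± 18.1 CPM for Ctla4, 12.1 ± 8.41 CPM for Cd5 and 106 ± 115 CPM for Btla (SD, n = 3), against 516 ± 297, 209.7 ± 97.8 and 500.0 ± 159 CPM in HADA (SD, n = 4). In edgeR without this library Ctla4 rose by 4.57 on the log2 scale (SE 0.9996, adjusted p = 0.0156). Cd5 rose by 4.23 in the same edgeR fit (SE 0.94, adjusted p = 0.0163). These were 2 of 8 receptors, beside 15.5% of the genes tested called higher and 19.7% lower. Both calls were lost when background was also subtracted, an alternative chosen after seeing the data. In that edgeR fit Ctla4 was at 4.15 (SE 1.74, adjusted p = 0.104) and Cd5 at 3.90 (SE 1.84, adjusted p = 0.151). None of its 6 tested receptors was called, beside 22.3% of the genes called higher and 5.18% lower, and the receptor median of 1.88 was below the 2.09 of all genes.

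The other receptors were not past the edgeR thresholds without control replicate 1. Btla had a log2 fold change of 2.34 (adjusted p = 0.0991), Icos of 2.77 (0.101) and Pdcd1 of 3.78 (0.104) in edgeR. Havcr2 was at 2.45, Cd6 at 2.14 and Tigit at -0.38. DESeq2 without the same library, an alternative chosen after seeing the data, called 6 receptors higher (Btla, Cd5, Cd6, Ctla4, Havcr2 and Icos), beside 26.1% of the genes tested called higher and 24.9% lower.

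**Figure D3:**
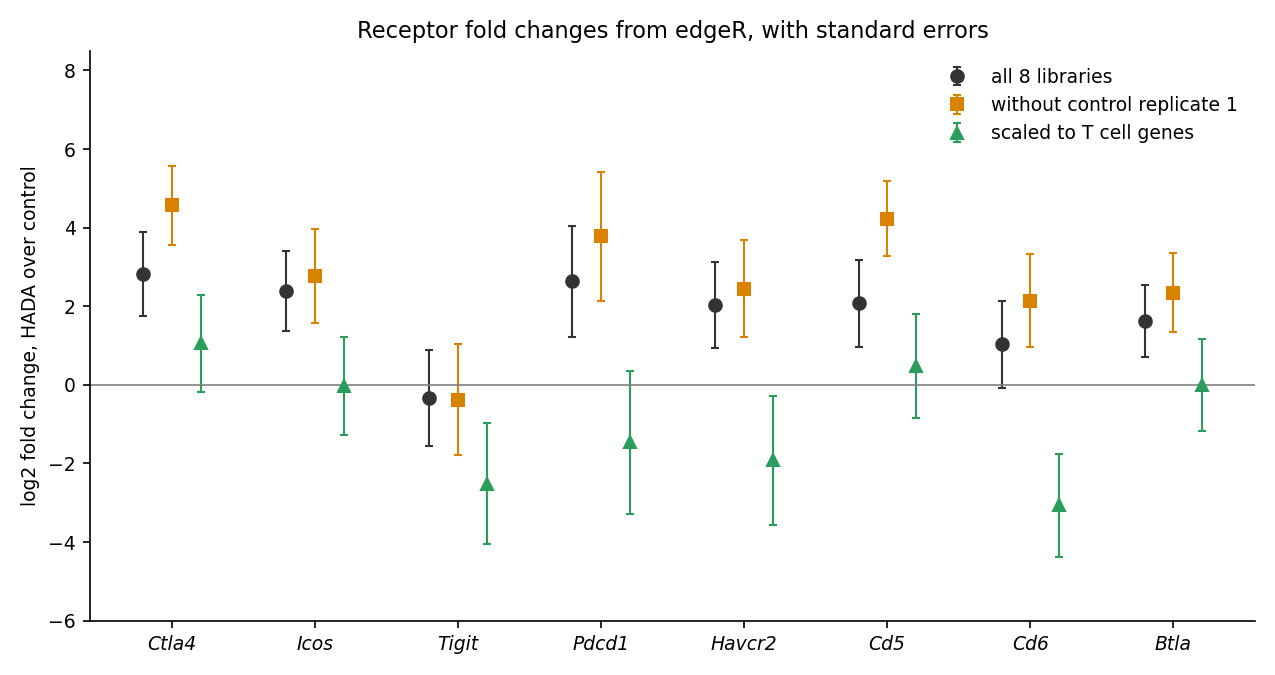
Log2 fold change (HADA over control) of the 8 tested receptors in edgeR with all 8 libraries, without control replicate 1, and with libraries scaled to T cell genes, with bars of 1 SE. Ctla4 moves from 2.81 to 4.57 without control replicate 1 and to 1.06 under the T cell scaling, and Tigit is below 0 in each.

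The T cell genes took between 0.294% and 0.585% of the counts in HADA, 0.322% in control replicate 1, and 0.0253%, 0.113% and 0.212% in control replicates 2, 3 and 4. Receptor counts were therefore also set against 1000 counts of these 10 genes. On this scale Ctla4 was at 65.4, 90.0, 101.7 and 81.6 in HADA and at 75.8, 44.2, 27.5 and 15.6 in control. HADA replicate 1 was below control replicate 1, and the other 3 HADA libraries were above all control libraries.

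Btla was nearly level on this scale, at 124, 100.7, 71.9 and 70.7 in HADA and 111, 86.3, 82.8 and 88.4 in control. The Btla groups overlapped relative to T cell genes, also without control replicate 1. Cd5 was at 39.5, 36.0, 33.4 and 34.2 in HADA, a narrow range, and at 55.6, 21.0, 19.6 and 6.20 in control. Icos was at 23.3, 24.6, 58.3 and 72.0 in HADA and inside that range, between 31.9 and 57.1, in control. The 57.1 is the value of control replicate 2. In that library Ctla4, Icos, Cd5 and Btla were not above background, so its values on this scale rest on background-level counts.

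Tigit was at 0.254, 4.40, 6.05 and 8.21 counts per 1000 in HADA and at 9.24, 23.8, 32.7 and 42.3 in control. Tigit was not above background in HADA replicate 1 and control replicate 2, at 0.339 and 0.537 times the expected count. All HADA libraries were below all control libraries, as they were for Lag3, whose counts are at background level. Of the genes tested, 11.2% were lower and 0.869% higher in HADA without overlap on this scale, and no receptor was higher in this way. Without control replicate 1, Ctla4 and Cd5 were higher in each HADA library than in any control library, beside 1.98% of the genes tested. With edgeR library sizes set from the T cell genes, the median over the genes tested moved to -3.56. The median over the 8 receptors moved to -0.75, with 2 of the 8 positive. Log2 fold changes were then 1.06 (SE 1.23, adjusted p = 0.486) for Ctla4, 0.48 for Cd5, -0.026 for Icos and -0.00467 for Btla. Tigit was at -2.51 with an adjusted p of 0.166 in edgeR. Cd6 was the 1 receptor called, lower at -3.06 (adjusted p = 0.0462 in edgeR), beside 43.7% of the genes tested called lower and 0.223% higher. That value includes control replicate 2, at 433 Cd6 counts per 1000, where the T cell genes numbered 3662 counts.

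**Figure D4:**
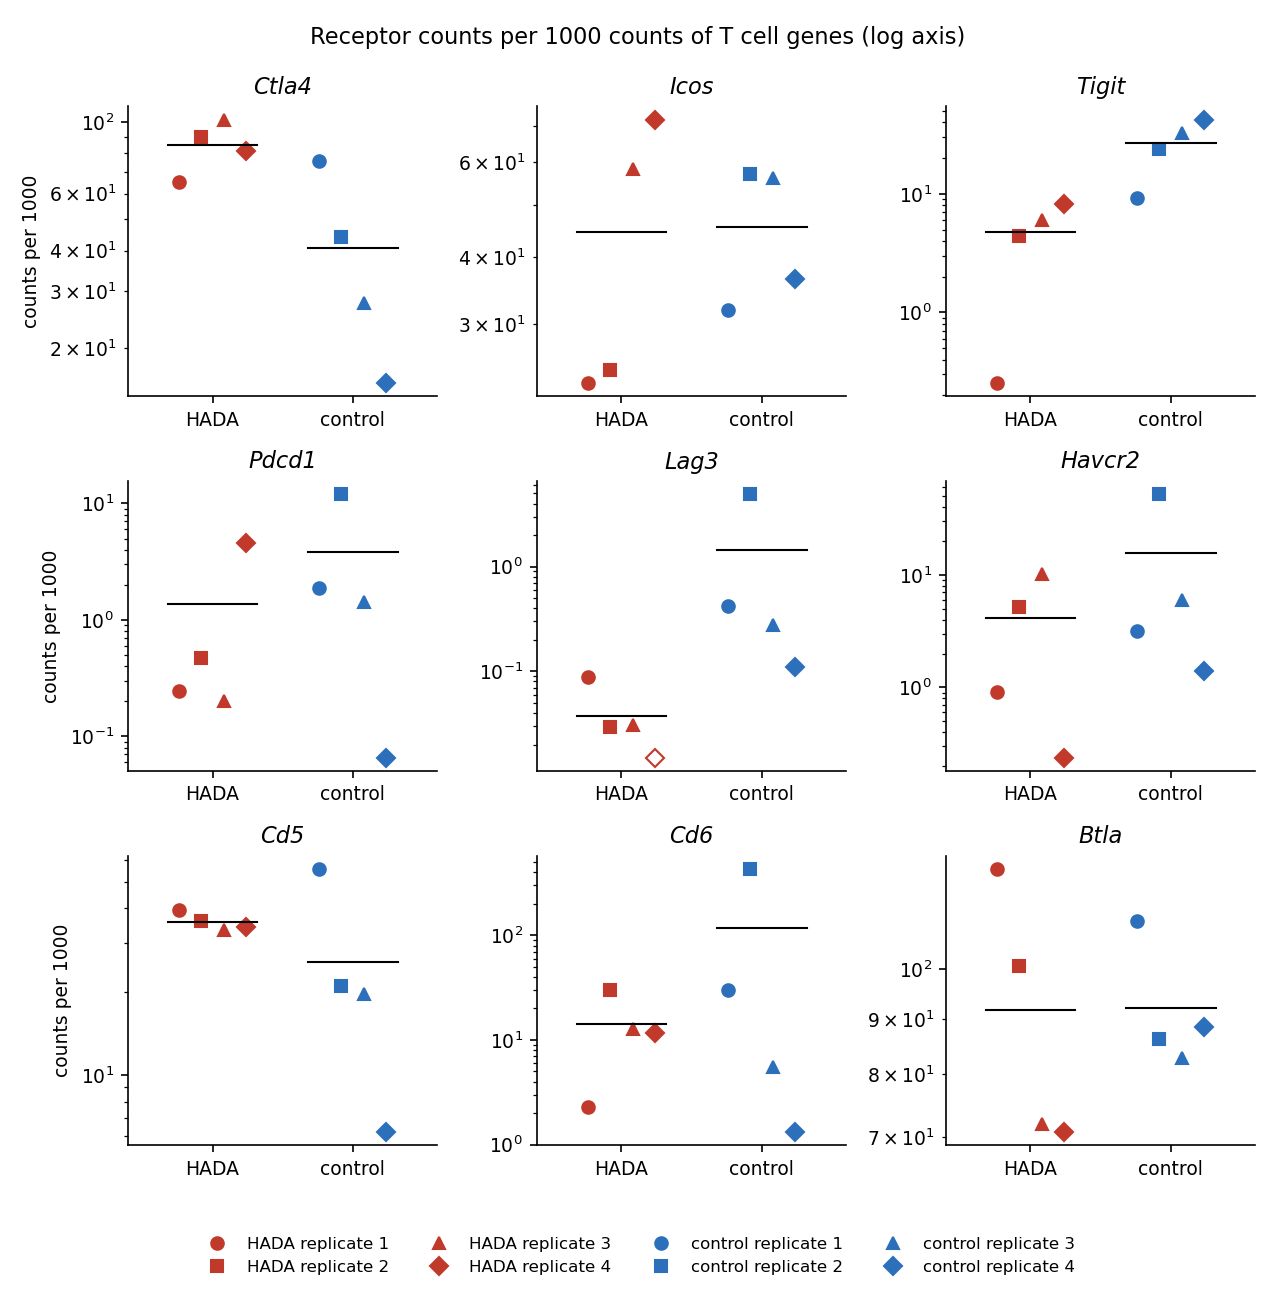
Counts of each receptor per 1000 counts of 10 T cell genes (log axis) in each library, HADA in red and control in blue, with black lines at the group means and an open diamond for 0 counts. Tigit lies between 0.254 and 8.21 in HADA and between 9.24 and 42.3 in control, whereas Btla lies between 70.7 and 124 in HADA and between 82.8 and 111 in control.

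Levels were compared between receptors per kilobase of summed exon length. In HADA the order of mean CPM per exon kilobase was Ctla4 (222), Btla (128), Icos (93.8), Cd5 (41.5), Tigit (32.6), Cd6 (9.41), Pdcd1 (5.92), Havcr2 (5.07) and Lag3 (0.0760). Neighbours in this order overlapped in their ranges over the 4 libraries, save Havcr2 and Lag3. In HADA replicates 1 and 4 Havcr2 was itself not above background, at 0.712 and 0.735 times the expected count. In control the order began with Btla (41.2), Tigit (40.8), Ctla4 (31.7) and Icos (18.0), followed by Cd5 (9.94), Cd6 (4.63), Havcr2 (1.25), Pdcd1 (1.07) and Lag3 (0.263), and no neighbours separated. Within single libraries Ctla4 ranked first in HADA replicates 2, 3 and 4 and in control replicate 1, and at rank 4 in control replicates 2, 3 and 4. Tigit ranked first in control replicates 3 and 4 and between ranks 4 and 6 in the HADA libraries. In control replicate 2 only Cd6 was above background, so the other ranks in that library rest on background-level counts. Without control replicate 1, Tigit led the control order at 45.7 and Ctla4 stood at rank 4 with 10.1. Per kilobase of span in place of exon length, Btla led that order at 3.17 and Tigit followed at 3.13.

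Partners of the receptors were read from 47 genes in 4 groups, of which 43 were tested. Ceacam1, Vsir and Lcp2 were at 0 in every library, but other genes' spans cover 100% of each, so this says nothing about their expression. None of the 43 was called by edgeR with all 8 libraries, in either direction. An unadjusted p was below 0.05 for 6 (Cblb, Cd160, Cd86, Fgl1, Rab11a and Tnfrsf14), against 26.7% of all genes tested. DESeq2 called 4 higher (Cblb, Cd160, Cd86 and Rab11a) and 2 lower (Fgl1 and Tnfrsf14), against 11.2% and 19.3% of all genes tested. Partner genes were not compared with background one by one, save Fgl1, Cd86, Tnfrsf14 and Cd274. Fgl1, with a span of 23.7 kilobases, held 31, 38, 19 and 23 counts in HADA and 0, 235, 170 and 101 in control. Background was 5.01, 4.17, 2.71 and 1.91 counts per kilobase in HADA and 0.0799, 10.6, 8.12 and 3.45 in control. The log2 fold change was above 0 for 34 of the 43, against 50.2% of all genes tested. Its median was 1.07, against 0.01 over all genes tested. Of the ligands and counter-receptors, 12 of 13 were tested, with a median of 0.22. With background subtracted, 39 partner genes were tested in edgeR and none was called. Their median was then 1.04, against 1.01 over all genes in that fit. Tnfrsf14 alone had an unadjusted p below 0.05 there, against 11.0% of all genes. The CTLA-4 ligand gene Cd86 was at 131 ± 41.1 CPM in HADA and 16.5 ± 13.2 CPM in control (SD, n = 4 each), without overlap, and its log2 fold change was 3.005 (SE 0.83, adjusted p = 0.0776 in edgeR). The other CTLA-4 ligand gene, Cd80, was at -0.73 (SE 1.11). Tnfrsf14, which encodes the BTLA partner HVEM, was at 1.26 ± 0.537 CPM in HADA and 17.3 ± 12.4 CPM in control (SD, n = 4 each), at -3.79 (SE 0.97, adjusted p = 0.0628 in edgeR). Control replicate 1, at 1.24 CPM, lay with the HADA libraries, though this value is 2 counts.

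Further ligand genes were Icosl at 2.15 (SE 1.22), Cd274 (PD-L1) at 2.01 (SE 1.25), the CD6 ligand Alcam at 0.86 (SE 0.68) and the TIGIT ligand Pvr at -0.63 (SE 1.14). Without control replicate 1, Cd274 rose by 4.99 (adjusted p = 0.0105) and Tnfrsf14 was at -4.04 (adjusted p = 0.0059) in edgeR. Cd274 held 67 and 26 counts in control replicates 2 and 3, below the background expected over the uncovered part of its span. Control replicate 4 held 72 Cd274 counts, above that background. B cell and myeloid genes, from cells that make several of these ligands, varied as widely. Of 6 B cell markers the 5 detected summed to between 963 and 3283 CPM in HADA and between 99.1 and 2599 in control. Ms4a1 was at 0, but other genes' spans cover 100% of it, so this 0 says nothing about its expression. All 9 myeloid markers had counts, and summed to between 1238 and 3801 CPM in HADA and between 97.0 and 2590 in control. Itgam had 2 counts in HADA replicate 1 and 0 in the rest. Other genes' spans cover 99.9% of it, so these counts say nothing about its expression. The part of B cells and myeloid cells in the ligand and receptor values was not tested.

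Among 10 other checkpoint and costimulatory receptors 8 were tested, with a median log2 fold change of 1.12. Cd28, which shares its ligands with CTLA-4, was at 669 ± 404 CPM in HADA and 694 ± 507 CPM in control (SD, n = 4 each), a log2 fold change of -0.05 (SE 0.84, adjusted p = 0.971 in edgeR). The 15 tested of 16 signalling and trafficking genes had a median of 1.07, and the 8 transcription regulators a median of 1.16. With background subtracted, the median was 1.37 over the other receptors, 0.44 over signalling and trafficking genes and 1.04 over transcription regulators. Over all genes in that fit it was 1.01. Groups did not overlap, higher in HADA, for 7 of the 43 (Cd86, Cd160, Pik3r1, Cblb, Trat1, Rab11a and Maf), beside the 9.13% of all genes tested. Among them Cblb, a ubiquitin ligase that restrains T cell receptor signalling, was at 363 ± 96.8 CPM in HADA and 96.7 ± 60.2 CPM in control (SD, n = 4 each). Rab11a, a small GTPase of recycling endosomes, was at 186 ± 83.1 CPM in HADA and 34.7 ± 45.5 CPM in control (SD, n = 4 each). Without control replicate 1, edgeR called 8 of the partner genes higher (Bag6, Cblb, Cd160, Cd244a, Cd274, Cd86, Irf4 and Rab11a), beside 15.5% of all genes tested.

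Markers of other cell types varied between libraries. The CD8 T cell genes Cd8a and Cd8b1 summed to between 14.5 and 176 CPM in HADA and between 0.621 and 2.76 CPM in control. Cd8b1 was called higher (log2 fold change 4.97, adjusted p = 0.0301 in edgeR), and Cd8a was not called (5.95, adjusted p = 0.0889 in edgeR). Cd8a held 4, 6, 464 and 1101 counts in HADA and 0, 13, 18 and 4 in control. In HADA replicates 1 and 2 it was below the background expected over its span of 5.75 kilobases. The 4 detected of 5 erythroid genes summed to between 144 and 2806 CPM in HADA and between 1023 and 28265 CPM in control. The highest sum was in control replicate 1. Alas2 was at 0, but other genes' spans cover 100% of it. All 5 platelet genes were detected, at between 268 and 1662 CPM in HADA and between 43.0 and 469.8 in control. The 6 NK cell genes, all detected, ranged from 3.25 to 387 CPM in HADA and from 7.09 to 104 CPM in control. HADA replicate 4, where Pdcd1 was high, had the highest sums of the NK cell, CD8 T cell, T cell, Treg and B cell genes. The part of these cells in the receptor values was not tested.

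The 8 tested receptors were averaged as standardized log2 CPM in each library. HADA replicates were at -0.25, 0.20, 0.89 and 0.88 and control replicates at 0.40, -1.12, -0.54 and -0.45, so control replicate 1 was above HADA replicates 1 and 2. Over the 8 libraries the protein-coding genes nearest to this average were Ass1 (Pearson's r 0.991), Marchf6 (0.982), Marchf7 (0.978), Stx5a (0.967) and Odr4 (0.966). The 8 libraries share the depth and T cell gene differences given above, so these correlations are a description.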

How the data were processed

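RNA-seq libraries of sorted blood Tregs (4 HADA, 4 control) were grouped by their labels. The deposited values are raw counts, which the authors made with FastQC, Trimmomatic, STAR (GRCm39) and featureCounts. Tool versions, strand and multi-mapping settings are not given in the sources used here. Deposited lengths equal gene spans for 100% of genes, so counts include introns, and reads in spans that overlap can be lost. GENCODE vM39 gave gene names for 98.7% of the 56980 identifiers.

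Counts were tested with edgeR 4.0.16 (TMM, filterByExpr, quasi-likelihood, no covariates) in R 4.3.3 on 21991 genes, with Benjamini-Hochberg adjustment over all of them. The SE of a log2 fold change was derived from its F statistic. TMM factors lay between 0.628 and 2.24. Single values per library were compared by exact two-sided permutation. Alternatives were DESeq2 1.42.0, limma 3.58.1, other scalings and filters, background subtraction, equal depth, a replicate block and each library left out. The scripts were tested on simulated data, and other steps used scipy 1.17.1, numpy 2.4.6 and pandas 2.3.3 under Python 3.11.15.

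The receptors, partner lists, markers and tests were chosen with earlier results of these data known. The text names the 9 receptors, 8 defining partners, partner genes past the thresholds, and the 5 genes nearest to the receptors' average. The 7 partner genes without overlap, and those named with an unadjusted p, a DESeq2 call or a call without control replicate 1, were named after their values were seen. Receptor protein sequences were not used here.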

Additional observations from a re-analysis of the deposited data

Results flagged for a closer look

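Among 38 groups of 4 libraries checked for a single library apart from the rest (by Dixon's test on its gap over the group's range, at the 95% level), 2 stood out, where chance alone gives 1.9. Pdcd1 in HADA replicate 4 was at 5.42 log2 CPM, and the other HADA libraries were between 0.12 and 0.71. Cd6 in HADA replicate 1 was at 3.22 log2 CPM, and the other HADA libraries were between 6.40 and 6.76.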

How the results depend on the processing

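Lag3 was at background in all 8 libraries, and Pdcd1 and Havcr2 in most. Of the 146 log2 fold changes of single receptors under 19 alternative fits, 124 kept their direction and their side of the threshold, 2 (Pdcd1 by DESeq2) kept their direction with no adjusted p, 10 kept it and passed the threshold, and 10 changed sign, of which 1 (Cd6 under T cell scaling) was called. Receptors called higher numbered 0 with all libraries in edgeR, 2 by DESeq2, between 0 and 2 with single libraries left out, 6 by DESeq2 without control replicate 1, and 0 with background subtracted without that library. Receptors called lower numbered 1 under T cell scaling. Partner genes called higher numbered 4 by DESeq2, 1 by limma, between 0 and 8 with single libraries left out, 19 by DESeq2 without control replicate 1 and 5 with background subtracted without that library. Partner genes called lower numbered 5 under T cell scaling, 2 by DESeq2, between 0 and 2 with single libraries left out, 2 by DESeq2 without control replicate 1 and 1 with background subtracted without that library.

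T cell scaling turned Icos to -0.026, Pdcd1 to -1.47, Havcr2 to -1.92, Cd6 to -3.06 and Btla to -0.00467, and background subtraction turned Cd6 to -0.28. Leaving out single libraries gave between -0.99 and 0.85 for Tigit and between -0.28 and 3.78 for Pdcd1. It gave between 2.43 and 4.57 for Ctla4, between 1.82 and 2.80 for Icos, between 1.68 and 4.23 for Cd5, between 0.67 and 2.14 for Cd6, between 1.24 and 2.34 for Btla and between 0.30 and 2.54 for Havcr2. By span in place of exon length, 7 of 9 receptors kept their rank in each group.

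Over all genes tested, 363 were called higher and 105 lower. These were 2457 and 4247 by DESeq2, 1191 and 84 by limma, 49 and 9610 under T cell scaling, 408 and 54 with no filter, 93 and 133 with at least 10 counts in every library, 120 and 95 at equal depth, and 107 and 109 with background subtracted. Without control replicate 1 they were 3716 and 4732, and without control replicate 3 they were 28 and 1. The cause was not tested. After centring within groups, HADA and control libraries of the same replicate number had correlations of -0.207, 0.252, -0.0805 and -0.00316. Those of unlike number lay between -0.261 and 0.248. With so few pairs these values cannot show whether the numbers pair the libraries. With the replicate number as a block, 158 genes were higher and 11 lower and no receptor was called (Ctla4 4.06, adjusted p = 0.113 in edgeR).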
